A study of Mus musculus with 14 samples.

Results

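The samples described here were 7 RNA samples of mSCC-38 cells, 4 transfected with the siRNA Si1AK and 3 with a control siRNA (SiC), out of 14 in the series. mSCC-38 is a mouse skin squamous cell carcinoma line, derived from a tumour raised with the carcinogen DMBA and the promoter TPA. Si1AK is 1 of 2 siRNAs directed against AK144841, a long non-coding transcript, and the labels call the control only a control siRNA, without its sequence. Both were delivered with the lipid reagent RNAimax and RNA was taken after 72 h. The titles of the control samples differ, SiC1 for replicate 1 and NC2 and NC3 for replicates 2 and 3. All are described as control siRNA, and the labels do not say whether it was the same siRNA. The other 7 samples were 4 of untransfected cells (NT) and 3 of cells given the second siRNA (Si2AK). They share in the estimate of spread, in the choice of the brightest probe of a gene and in the order of genes by level. Their levels are also set beside those of Si1AK and SiC, with a comparison of Si1AK with NT for some genes. All groups share the same single tumour line, grown with serum, and the labels do not say that replicates came from separate cultures, so p-values here measure the spread among samples that may be technical repeats. Its own level was not analysed here, and no value below checks the knockdown of AK144841.

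An siRNA guides the RNA interference machinery to transcripts that pair with it, and its seed can also pair with others, so an siRNA is read against a control siRNA that shares the transfection. Squamous carcinoma cells of the skin keep much of the keratinocyte programme, in which basal cells attach to matrix through integrins and laminins, and suprabasal cells switch on cornified envelope genes. They also exchange signals with the tissue around them through growth factors, Wnt and Hedgehog ligands, death receptors and proteases.

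Each level below is the log2 of the processed Cy3 signal of a probe minus the 75th percentile of its array, each difference is Si1AK minus SiC on that scale, and each error of a difference is the moderated standard error (SE) of limma. A gene was called when its limma p-value, adjusted by the Benjamini-Hochberg method over 20736 genes, was below 0.05. As a check on the cells, 12 of 14 keratinocyte markers, Krt5, Krt14 and Trp63 among them, were well above background on all 6 arrays other than SiC replicate 1, while Cdh1 was so on none. Of the defining markers of other cell types Ptprc and Lyz2 (leukocytes), Tek (endothelium), Dct and Tyrp1 (melanocytes) and Thy1 (fibroblasts) were well above background on none of these 6 arrays. Other markers of these types were measured on all 6, 5 of 9 for leukocytes, 3 of 6 for endothelium, 4 of 6 for melanocytes and 4 of 9 for fibroblasts, and so were 3 of 4 keratins of simple epithelium. In these RNA pools a change in the number of cells of a kind and a change of RNA per cell cannot be told apart.

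SiC replicate 1 stood apart from the other control arrays. On it 90.5% of probes were well above background, beside 53.8% and 55.2% on SiC replicates 2 and 3 and 56.5% to 60.1% on the Si1AK arrays, and its median processed signal was 270.9, beside 28.6 and 34.6 on the other SiC arrays. In the 5184 genes with the lowest levels, the first of 4 equal sets, its values exceeded the mean of SiC replicates 2 and 3 by a median of 1.93, and in the set with the highest levels they lay below it by a median difference of -0.34. The median difference between Si1AK and SiC was -0.64 in the lowest set and 0.043 in the highest, and became -0.014 and -0.067 without that array. It is the only SiC array on slide 1, so a value within slide 1 rests on it, and a value within slide 2 rests on SiC replicates 2 and 3. For the main genes and lists below, values without it are given as well. Si2AK replicate 2 had raised dim signal too, with 84.9% of probes well above background, beside 54.9% and 58.9% on the other Si2AK arrays. Its median processed signal was 107.5, beside 36.2 and 29.3. That array is part of the shared spread and of the Si2AK levels below, which are therefore uncertain for dim genes.

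**Figure D1:**
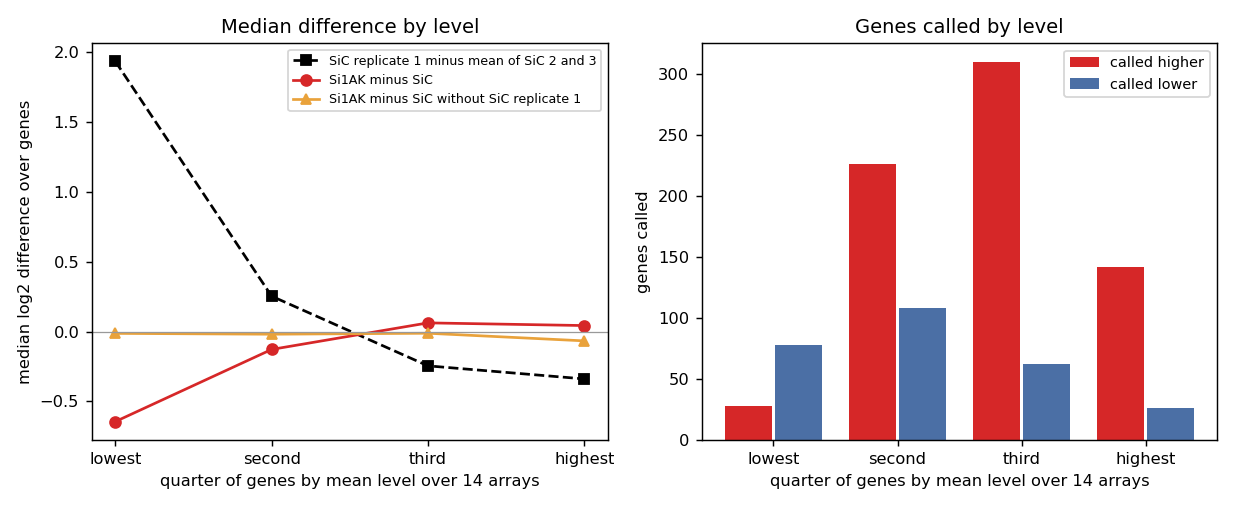
Left, the median log2 difference over genes (vertical axis) in 4 equal sets of genes ordered by mean level over the 14 arrays (horizontal axis), for SiC replicate 1 against SiC replicates 2 and 3 (black squares), for Si1AK against SiC (red circles) and for the same without SiC replicate 1 (orange triangles). Right, bars give the number of genes called higher (red) or lower (blue) with Si1AK in each set. The red line starts at -0.64 in the lowest set and the orange line stays between -0.067 and -0.012.

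More genes were called higher than lower with Si1AK. Of 20736 genes tested, 980 (4.73%) were called, 706 higher (3.4%) and 274 lower (1.32%), and 123 of the higher and 91 of the lower genes differed by at least 2-fold. The median rise was 0.60 and the median fall was -0.69, against a median of -0.049 over all genes. Arrays of both groups did not overlap for 704 of the 706 and 272 of the 274, where 20.0% of all genes had groups that did not overlap (11.0% with Si1AK higher, 9.06% with Si1AK lower). Of the called genes 803 carried a gene symbol, which is 6.05% of the 13283 genes with one (4.74% higher, 1.31% lower). Among 2796 probed lincRNA regions without a gene name, 21 were called higher and 41 lower, beside 706 and 274 of all 20736 genes. Their share called lower was near that of all genes, and their share called higher was below it. The arrays of both slides gave the sign of the call for 704 of the 706 and all of the 274. Groups that do not overlap have the same sign on each slide, and the calls used these same arrays. This count is therefore no separate support. Without SiC replicate 1, 825 genes were called (3.98%), 560 higher (2.7%) and 265 lower (1.28%). Of the 706 higher genes 457 were called both ways, and of the 274 lower genes 151 were. Leaving out Si1AK replicate 1 or 2, or SiC replicate 2, left 477, 453 or 633 calls, and a fit of the 7 arrays alone left 304. On slide 2 by itself 141 genes were called, 34 of them lower, and on slide 1 by itself 2 higher and 2 lower. Arrays weighted by their quality in limma, which gave SiC replicate 1 a weight of 0.099 and SiC replicate 2 one of 3.91, turned the balance to 2303 higher and 2588 lower.

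The genes called higher lay mostly in the middle of the range of levels. In the 4 sets from lowest to highest level 28, 226, 310 and 142 genes were called higher and 78, 108, 62 and 26 lower. Of the higher genes 691 of 706 were well above background on all 7 arrays, and of the lower genes 230 of 274 were. Many genes are measured by more than 1 probe, which shows whether a call rests on the chosen one. For 209 of the higher genes 277 further probes were measured, and 206 of these (74.4%) had a positive difference, or 252 (91.0%) without SiC replicate 1. For 64 of the lower genes 94 of 101 further probes (93.1%) had a negative difference, or 86 (85.2%) without that array. Among genes that were not called, 70.5% of further probes had the sign of the chosen probe, or 63.5% without that array.

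The 12 largest rises by the fitted difference, among genes whose groups did not overlap and that were also called without SiC replicate 1, were those of Robo4, Cpa4, Asphd2, Lce1i, Cryab, Lce1g, Lce1c, Ces2b, Plac8, Casp14, Nppb and Ankrd1. Cpa4, a carboxypeptidase that trims amino acids from the ends of peptides, was at 1.58, 1.52, 1.41 and 1.0 with Si1AK and -0.93, -0.93 and -0.67 with SiC. No Si1AK array came near a SiC array, and the difference was 2.22 ± 0.15 (SE; limma adjusted p = 5.08e-05), 2.18 without SiC replicate 1, 2.48 on slide 1 and 2.01 on slide 2. Its level was -0.60 ± 0.16 (SD, n = 4) in NT and 0.56 ± 0.18 (SD, n = 3) in Si2AK. The probe of Cpa4 spans chromosome 6, 30541531 to 30541590, in mm9.

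Casp14, a caspase that acts in cornification rather than in cell death, was at 1.20, 1.27, 1.01 and 0.62 with Si1AK and -0.92, -0.88 and -0.84 with SiC. All 4 Si1AK arrays were higher, with a difference of 1.90 ± 0.15 (limma adjusted p = 7.54e-05), or 1.88 without SiC replicate 1, and the level was -0.60 in NT and -0.93 in Si2AK, close to that in SiC. Plac8, a small cysteine-rich protein, was at -1.56, -1.40, -1.72 and -1.51 with Si1AK and -3.15, -3.46 and -3.76 with SiC, again without overlap, a difference of 1.91 ± 0.14 (limma adjusted p = 6.65e-05), or 2.06 without SiC replicate 1. Among the late cornified envelope genes, whose products are crosslinked into the outer layer of skin, Lce1j had the smallest error. It stood at 2.13, 2.20, 2.20 and 2.08 with Si1AK and 0.97, 0.87 and 0.93 with SiC and rose by 1.23 ± 0.084 (limma adjusted p = 5.08e-05), or 1.26 without that array, with 0.95 in NT and 2.30 in Si2AK. Probes of near-identical genes (the Lce1, Klk1b, Ces2 and Serpinb9 families) may bind each other's transcripts, so which member changed is uncertain.

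Robo4 and Asphd2 were dim in SiC. Robo4, a roundabout receptor known from endothelium, was at -2.54, -2.71, -3.85 and -4.17 with Si1AK and -4.35, -7.23 and -6.67 with SiC. All 4 Si1AK arrays measured it well above background and no SiC, NT or Si2AK array did, which makes it at least 3.27-fold higher with Si1AK, or at least 4.26-fold without SiC replicate 1. Such a bound sets the mean of the brighter group against a floor for the dimmer one, taken per array as the dimmest signal that still counted as above background, or as the signal of the probe where that was higher. Genes given by such a bound passed the filter on dim probes only through the group in which they are bright, so the bound is a description and no p-value is given with it. Robo4 was not called when SiC replicate 2 or 3 or Si1AK replicate 1, 2 or 3 was left out, nor in a fit of the 7 arrays alone. Asphd2, of the aspartate beta-hydroxylase domain proteins, was at -1.33, -1.23, -1.82 and -2.08 with Si1AK and -3.02, -4.25 and -4.22 with SiC, with SiC replicate 1 above the other SiC arrays and all 3 below Si1AK, and rose by 2.22 ± 0.36 (limma adjusted p = 0.00475), or 2.62 without SiC replicate 1. Ces2b, a carboxylesterase, was well above background on all Si1AK arrays and no SiC array, but its bound is below 1-fold, so no size is given; without SiC replicate 1 it was at least 1.19-fold higher. It was not called without SiC replicate 2 or 3 or Si1AK replicate 2. Among 6 endothelial markers Tek was well above background on none of the 6 arrays other than SiC replicate 1, Cdh5 rose by 1.08 (limma adjusted p = 0.0472, lost without SiC replicate 2 or 3 or Si1AK replicate 1, 2 or 3), and the summed signal relative to the 75th percentile was 7.91 to 9.43 on the Si1AK and 8.43 to 9.62 on the SiC arrays; the part of such cells in the value of Robo4 was not tested.

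**Figure D2:**
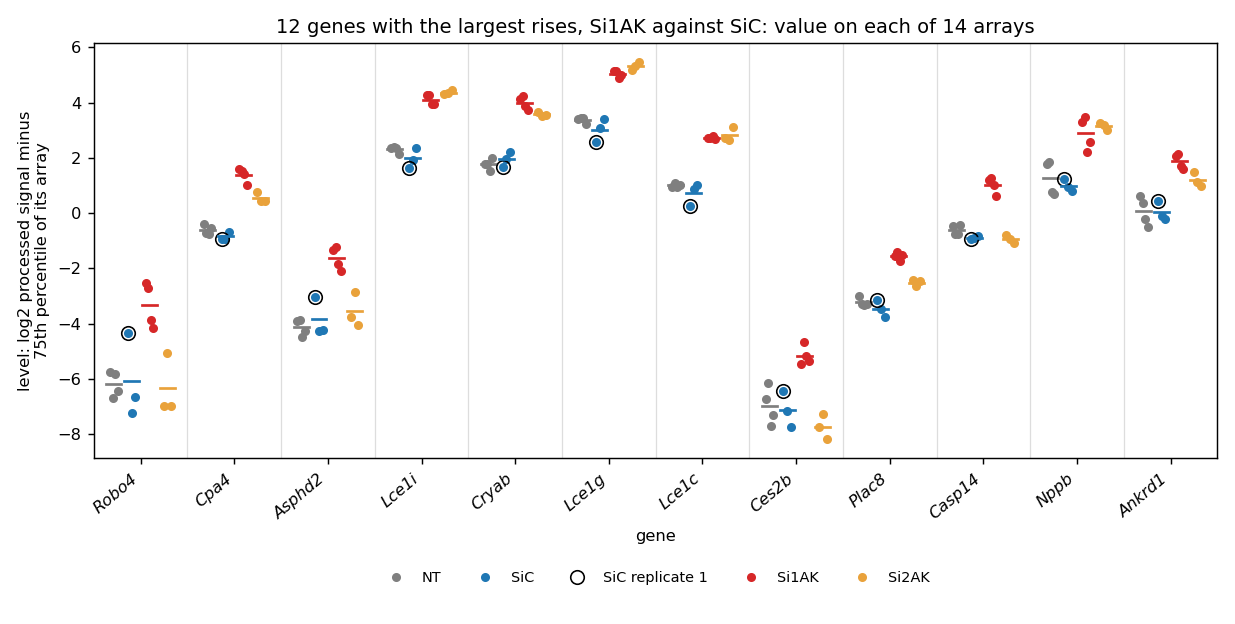
Level of the 12 genes with the largest rises (horizontal axis) on each of the 14 arrays, as log2 processed signal minus the 75th percentile of its array (vertical axis), for NT (grey), SiC (blue, replicate 1 ringed), Si1AK (red) and Si2AK (orange); short lines are group means. Every red point of a gene lies above every blue one, and the orange points of Lce1i (mean 4.36) and Casp14 (mean -0.93) lie beside the red and the blue points respectively.

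Of the 12 genes with the largest rises Cpa4 alone was found to have, before its start, a binding motif of AP-1, the dimer of Fos and Jun proteins that TPA is known to activate. Not every gene could be searched, as 21 of the 24 with the largest rises and falls had a promoter sequence. The motif TGACTCA, or TGAGTCA on the other strand, was looked for in the 250 bases before each RefSeq start (GRCm38.p6), and 4.46% of 32851 such promoters held it. Of the genes called higher 37 of 513 with a promoter in that table held it (7.21%), of the genes called lower 6 of 158 (3.8%), and of all genes tested 495 of 11277 (4.39%). The motif was chosen with the results known and these shares carry no test. A match describes letters, not binding. The promoters of Cpa4, Rgs17 and Dhrs9 are printed as examples of genes that were called higher in every fit that left out 1 array and hold the motif, in capitals, whose first base lies 10, 122 and 18 bases before the start. Adam19, P2rx7 and Prss23, described below, meet the same condition and are not printed.
Cpa4, chr6:30568119-30568368 (+ strand): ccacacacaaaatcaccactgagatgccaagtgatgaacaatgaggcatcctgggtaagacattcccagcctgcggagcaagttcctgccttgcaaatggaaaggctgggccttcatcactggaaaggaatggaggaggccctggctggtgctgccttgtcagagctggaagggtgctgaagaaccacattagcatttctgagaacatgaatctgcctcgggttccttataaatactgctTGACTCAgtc
Rgs17, chr10:5922401-5922650 (- strand): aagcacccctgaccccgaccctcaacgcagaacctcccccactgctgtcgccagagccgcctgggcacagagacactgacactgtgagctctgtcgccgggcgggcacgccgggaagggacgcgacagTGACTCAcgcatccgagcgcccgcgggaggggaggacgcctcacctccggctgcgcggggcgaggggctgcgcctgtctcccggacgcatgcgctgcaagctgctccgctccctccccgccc
Dhrs9, chr2:69380212-69380461 (+ strand): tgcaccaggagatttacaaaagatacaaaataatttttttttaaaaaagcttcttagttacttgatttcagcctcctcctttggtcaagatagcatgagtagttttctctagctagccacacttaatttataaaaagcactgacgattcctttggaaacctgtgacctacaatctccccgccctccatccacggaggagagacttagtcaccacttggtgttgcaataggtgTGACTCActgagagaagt

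Genes with large falls or small p-values differed in how SiC compared with NT and Si2AK. Tor2a, Glud1, Gpt2 and Cmtm6 were lower with Si1AK than in every other group, whereas Mrgprx2, Lrrc10b, Clec12a and Cdh7 were well above background on the SiC arrays and on no other array of the 14. Tor2a, a torsin-family ATPase of the endoplasmic reticulum, had the smallest adjusted p of all genes. It was at -0.83, -0.91, -0.94 and -0.61 with Si1AK and 1.15, 1.33 and 1.42 with SiC. The groups lay far apart and within each group the arrays were close, with a difference of -2.12 ± 0.11 (limma adjusted p = 9.1e-06), -2.19 without SiC replicate 1, -2.03 on slide 1 and -2.14 on slide 2. The level was 1.43 ± 0.11 (SD, n = 4) in NT and 1.85 ± 0.16 (SD, n = 3) in Si2AK. The probe of Tor2a spans chromosome 2, 32617687 to 32617746, in mm9.

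Glud1 and Gpt2 encode mitochondrial enzymes that interconvert glutamate and 2-oxoglutarate, Glud1 by deamination and Gpt2 by transfer of the amino group to pyruvate. Glud1 was at 3.99, 4.02, 4.06 and 4.28 with Si1AK and 5.20, 5.53 and 5.45 with SiC, a difference of -1.31 ± 0.099 (limma adjusted p = 7.22e-05), and at 5.58 in NT and 5.66 in Si2AK. Gpt2 was at -0.66, -0.48, -0.53 and -0.10 with Si1AK and 0.87, 0.96 and 1.07 with SiC, a difference of -1.41 ± 0.12 (limma adjusted p = 0.000115), and at 0.96 in NT and 2.15 in Si2AK. Cmtm6, a membrane protein that keeps PD-L1 at the cell surface, was at 0.79, 0.86, 0.91 and 1.26 with Si1AK and 2.17, 2.61 and 2.63 with SiC, a difference of -1.52 ± 0.14 (limma adjusted p = 0.00019), and at 2.71 in NT and 3.15 in Si2AK. For each of these genes every Si1AK array was below every array of the other 3 groups. Without SiC replicate 1 the differences of Glud1, Gpt2 and Cmtm6 were -1.40, -1.46 and -1.67. Against NT the differences of Tor2a, Glud1, Gpt2 and Cmtm6 were -2.25, -1.49, -1.40 and -1.76, all called by limma.

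Mrgprx2, a G protein-coupled receptor known from mast cells, was at -7.90, -8.01, -8.37 and -7.96 with Si1AK and -1.42, -2.62 and -3.98 with SiC, and only the 3 SiC arrays of all 14 measured it well above background. It was at least 9.51-fold lower with Si1AK, or at least 6.16-fold without SiC replicate 1. Lrrc10b was at least 9.86-fold lower, or at least 14.9-fold without that array. Clec12a, a lectin receptor of myeloid cells, was at least 5.53-fold lower and Cdh7, a cadherin, at least 3.64-fold, or at least 5.40-fold and 3.16-fold without that array. Klk1b26, a glandular kallikrein, was at least 9.11-fold lower, or at least 9.86-fold without SiC replicate 1, but it was also well above background on 2 of 4 NT arrays and 1 of 3 Si2AK arrays, and it was not called without SiC replicate 2 or 3 or Si1AK replicate 1, 2 or 3. The values of Mrgprx2, Lrrc10b, Clec12a and Cdh7 outside SiC were not well above background and have no order there. Leukocyte markers summed to 16.5 to 18.4 times the 75th percentile on the Si1AK arrays and 14.1 to 18.5 on the SiC arrays. Without SiC replicate 1 the highest SiC sum was 16.15, below every Si1AK array. Ptprc was well above background on none of the 6 arrays other than SiC replicate 1. The part of such cells in the values of Mrgprx2 and Clec12a was not tested.

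Scai, a cofactor of MRTF and SRF transcription, was at -6.47, -6.59, -5.89 and -6.19 with Si1AK and -3.72, -4.20 and -3.57 with SiC. It was well above background on all 3 SiC arrays but on only 1 of 4 Si1AK, 1 of 4 NT and 1 of 3 Si2AK arrays, so no size is given. Serpinb9e, a clade B serpin, was at -4.12, -4.01, -3.83 and -4.07 with Si1AK and -2.12, -2.98 and -0.98 with SiC and at -3.88 in NT and -1.20 in Si2AK, a difference from SiC of -1.98 ± 0.39 (limma adjusted p = 0.0143), or -2.03 without SiC replicate 1. For Slco1a1, a carrier of organic anions, at -2.26, the call was lost when any array other than SiC replicate 1 was left out (-2.68 to -1.81), and in the fit of the 7 arrays alone (adjusted p = 0.0522); there Serpinb9e was lost too (adjusted p = 0.0966).

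**Figure D3:**
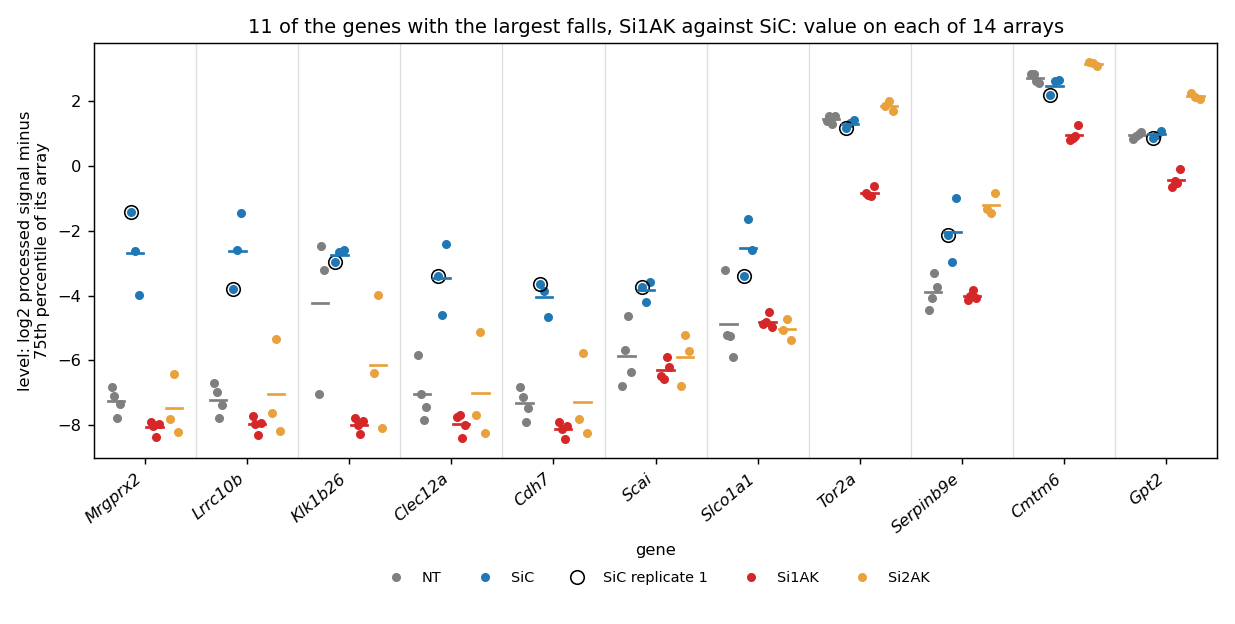
Level of 11 of the 12 genes with the largest falls (horizontal axis) on each of the 14 arrays, as log2 processed signal minus the 75th percentile of its array (vertical axis), with groups coloured as NT grey, SiC blue (replicate 1 ringed), Si1AK red and Si2AK orange, and short lines for group means. For Mrgprx2, Lrrc10b, Clec12a and Cdh7 the blue points stand alone, and for Tor2a, Cmtm6 and Gpt2 the red points do.

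For 58 gene lists, 2847 members were tested and 185 were called (6.5%), close to the 6.05% of all genes with a symbol. In 33 lists the share called was above 6.05% and 7 lists had no call. Among the highest shares, in lists of 12 to 42 members, were those of complement and coagulation, RGS proteins, ABC transporters, proteoglycan enzymes, TNF receptors, aldehyde-metabolising enzymes and ADAM proteases. The lists were chosen with earlier results of these data known and no list was tested as a set.

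**Figure D4:**
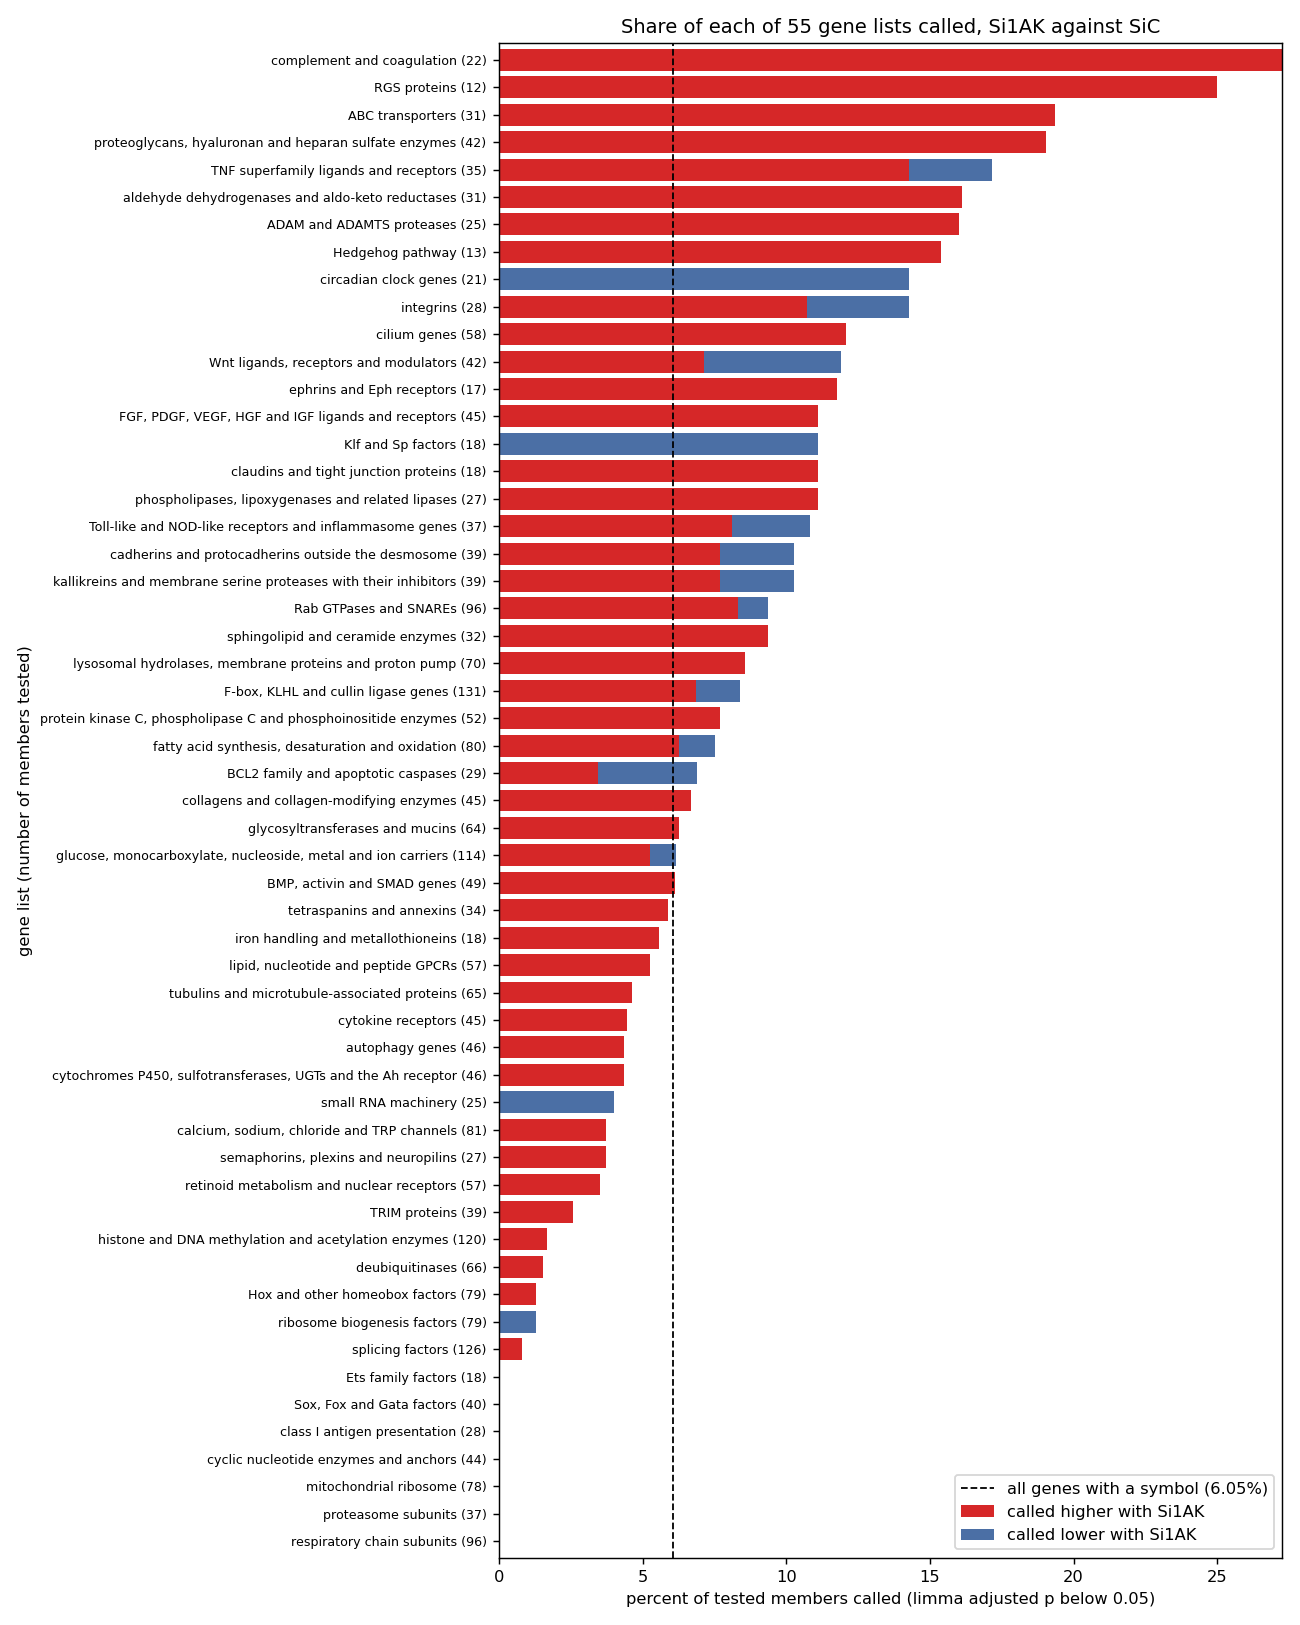
Percent of tested members called (horizontal axis) in 55 of the 58 gene lists (vertical axis, with the number of members tested), higher with Si1AK in red and lower in blue; the dashed line marks the 6.05% of all genes with a symbol. Complement and coagulation stands at 27.3% and splicing factors at 0.79%.

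Signalling genes were called higher in 31 of 393 cases and lower in 3 (8.65% called, beside 6.05% of all genes with a symbol). RGS proteins, which shut off G protein signals by speeding GTP hydrolysis, rose in 3 of 12 cases (list median 0.084, 0.15 without SiC replicate 1). Rgs16 was at 4.12, 4.03, 3.44 and 3.35 with Si1AK and 2.10, 1.98 and 2.06 with SiC, a difference of 1.69 ± 0.24 (limma adjusted p = 0.00242), or 1.72 without SiC replicate 1, and at 3.68 in Si2AK. Rgs17 was at -0.82, -0.68, -1.37 and -1.35 with Si1AK and -2.46, -2.73 and -2.68 with SiC, a difference of 1.57 ± 0.16 (limma adjusted p = 0.000326), or 1.65 without that array, with -1.78 in Si2AK. In both the Si1AK arrays of slide 1 were the highest and no array overlapped. Rgs2 rose by 0.62, a call lost without SiC replicate 2 or 3 or Si1AK replicate 1, 2 or 3 (0.50 to 0.72). Inpp5d, the 5-phosphatase SHIP1 that removes a phosphate from the PI3-kinase product, was at 2.73, 2.80, 2.28 and 2.22 with Si1AK and 1.10, 0.79 and 0.95 with SiC and rose by 1.56 ± 0.16 (limma adjusted p = 0.00033), or 1.64 without SiC replicate 1, with 1.13 in NT and 1.25 in Si2AK.

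Among Wnt ligands, receptors and modulators 3 rose and 2 fell of 42. The ligand Wnt7a was at 1.03, 0.91, 1.22 and 1.09 with Si1AK and -0.053, -0.27 and -0.092 with SiC and rose by 1.20 ± 0.12 (limma adjusted p = 0.000223). Lgr6, a receptor for R-spondins that marks skin stem cells, was at -0.12, -0.085, 0.23 and 0.0064 with Si1AK and -1.46, -1.08 and -1.02 with SiC and rose by 1.19 ± 0.21 (limma adjusted p = 0.00888), with -2.14 in Si2AK, lower than in SiC. The Wnt receptor Fzd5 went the other way, at -3.97, -3.73, -3.96 and -3.54 with Si1AK and -1.71, -2.86 and -2.70 with SiC, and fell by 1.38 (limma adjusted p = 0.00928), with -2.38 in NT and -1.60 in Si2AK. Its highest SiC value was that of replicate 1, and the difference without it was -1.02. Wnt9a rose by 0.54, or 0.40 without SiC replicate 1, and its call was lost without Si1AK replicate 2. The Hedgehog ligand Dhh rose by 1.24 ± 0.15 (limma adjusted p = 0.00115), from 1.60, 1.85 and 1.79 on the SiC arrays to 3.11, 3.24, 2.74 and 2.86 on the Si1AK arrays. Disp2, of the dispatched family that releases Hedgehog ligands, rose by 1.15 ± 0.17 (limma adjusted p = 0.00309). These were 2 of 13 Hedgehog genes.

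Growth factor genes of the FGF, PDGF, VEGF, HGF and IGF families rose in 5 of 45 cases. Fgfbp3, which binds and frees FGFs, rose by 1.0 ± 0.13, Irs1, the docking protein of insulin and IGF receptors, by 0.88 ± 0.11, Grb14, an adaptor that inhibits the insulin receptor, by 0.88 ± 0.11 and the VEGF receptor Flt1 by 0.66 ± 0.090 (limma adjusted p between 0.00115 and 0.00199). Without SiC replicate 1 they were at 0.93, 0.76, 0.90 and 0.62. Irs1 was lower in NT and Si2AK (-0.32 and -0.68) than on any Si1AK array, while the Si2AK mean of Grb14, 0.58, was within the range of its Si1AK arrays. Of 49 BMP and activin genes 3 rose (6.12%, near the 6.05% of all genes with a symbol). Acvrl1, the receptor ALK1, was at -0.18, -0.085, -0.38 and -0.57 with Si1AK and -1.54, -1.61 and -1.64 with SiC and rose by 1.29 ± 0.12 (limma adjusted p = 0.00019). Fst, which traps activin, rose by 0.81 ± 0.14 against SiC, but its mean levels in NT and Si2AK, 3.82 and 3.79, were within the range of the Si1AK arrays. Sema7a, a membrane-bound semaphorin, rose alone among 27 semaphorin genes, by 1.76 ± 0.30 (limma adjusted p = 0.00711). None of 44 cyclic nucleotide enzymes and anchors was called by limma with all arrays in the fit. At an unadjusted p below 0.05 there were 3, beside 4008 of all 20736 genes tested. Without SiC replicate 1, 1 of the 44 was called higher and 1 lower.

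TNF superfamily genes rose in 5 and fell in 1 of 35 cases, or rose in 2 and fell in 1 without SiC replicate 1. The TRAIL receptor Tnfrsf10b was at 3.99, 4.15, 3.87 and 3.87 with Si1AK and 2.99, 3.22 and 3.20 with SiC and rose by 0.83 ± 0.11 (limma adjusted p = 0.00129). Fas rose by 0.81 ± 0.17, and its call was lost without SiC replicate 1 (0.68, adjusted p = 0.0736 by limma) or Si1AK replicate 1 or 2. Tnfrsf25 was at -0.67, and this difference turned positive, 0.31 and 0.15, under quantile normalization and in the authors' deposited table; its call was lost when any array of the 7 other than SiC replicate 3 was left out. Of 37 Toll-like and NOD-like receptors and inflammasome genes 3 rose and 1 fell (10.8% called), or 4 rose and none fell without SiC replicate 1. Pycard, the adaptor ASC that builds inflammasomes, was at 1.93, 2.18, 1.87 and 2.0 with Si1AK and 1.06, 1.34 and 1.34 with SiC and rose by 0.75 ± 0.11 (limma adjusted p = 0.00261), and Nod1, a sensor of bacterial peptidoglycan, by 0.76 ± 0.13 (limma adjusted p = 0.00828). The growth hormone receptor Ghr rose by 0.84 ± 0.11 and Crlf2, the receptor of TSLP, by 0.55 ± 0.089. They were 2 of 45 cytokine receptors (4.44%, below the 6.05% of all genes with a symbol). Of 28 genes of class I antigen presentation none was called by limma. An unadjusted p below 0.05 was found for 4, beside 4008 of all 20736 genes tested. B2m was at 0.33 (adjusted p = 0.0773) and Tapbpl at -0.31 (adjusted p = 0.0659).

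With all arrays in the fit, complement and coagulation had the highest share, 6 of 22 members called higher. Without SiC replicate 1 there were 4 (list median 0.17 with and without it), while RGS proteins kept 3 of 12. Cd55, decay-accelerating factor, which takes apart complement convertases on the cell surface, was at 0.70, 0.45, 0.15 and 0.15 with Si1AK and -1.08, -0.75 and -0.88 with SiC. All Si1AK arrays were above all SiC arrays, and the difference was 1.27 ± 0.15 (limma adjusted p = 0.000735), 1.18 without SiC replicate 1, 1.66 on slide 1 and 0.96 on slide 2, with -1.03 in NT and -0.51 in Si2AK. The near-identical copy Cd55b, whose probe may bind transcripts of both genes, rose by 1.29 and lost its call without SiC replicate 2 or 3 or Si1AK replicate 1 or 2 (1.14 to 1.54). Serpind1, heparin cofactor II, an inhibitor of thrombin, was well above background on 4 of 4 Si1AK arrays and on no SiC or NT array, and was at least 1.43-fold higher, or at least 1.86-fold without SiC replicate 1. It is 1 of the 6 called and passed the filter on dim probes only through the Si1AK arrays. Pros1, protein S, the cofactor of activated protein C, was at 0.89, 0.92, 0.66 and 0.74 with Si1AK and 0.17, 0.15 and -0.080 with SiC and rose by 0.72 ± 0.10 (limma adjusted p = 0.00229).

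**Figure D5:**
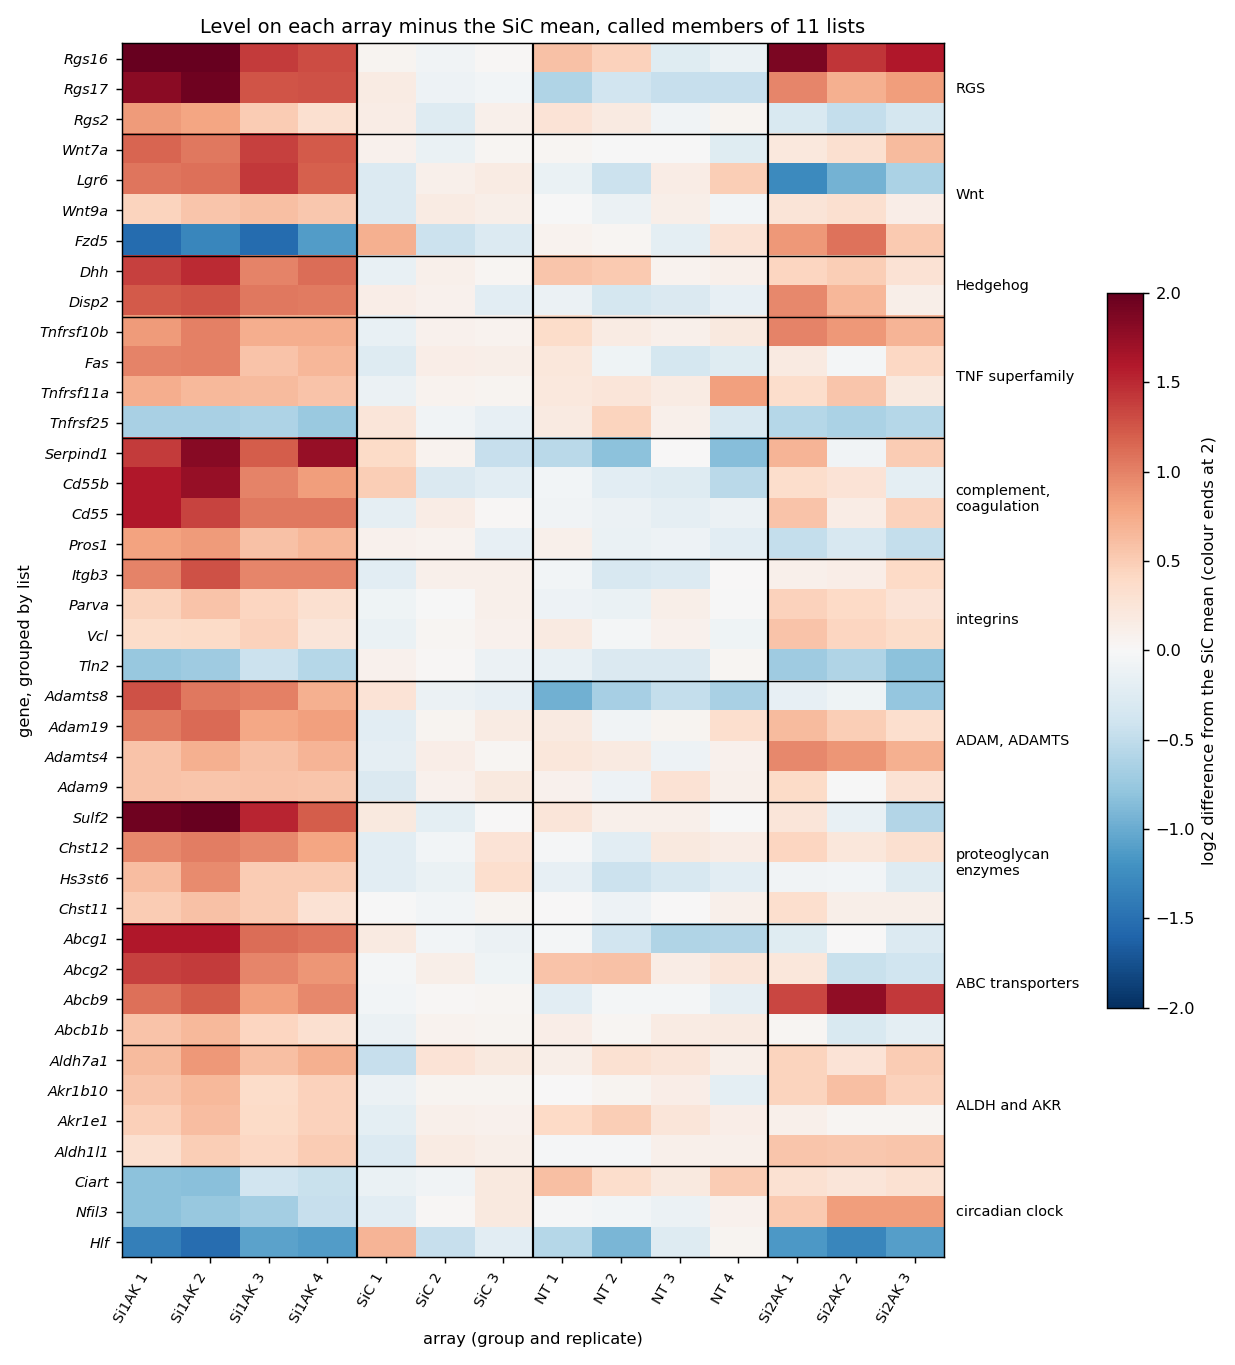
Colour gives the level of a gene on an array minus the mean of the 3 SiC arrays, in log2 units with the scale ending at -2 and 2, for called members of 11 lists (rows, up to 4 per list by smallest p) on the 14 arrays (columns, grouped by siRNA). The first 4 columns (Si1AK) are red for Cd55, Sulf2 and Abcg1 and blue for Fzd5, Hlf and Nfil3, and in the last 3 columns (Si2AK) Sulf2 and Abcg1 stay near the SiC mean while Rgs16 and Abcb9 are red.

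With all arrays in the fit, genes of matrix and adhesion had the highest share among the themes, 30 higher and 3 lower of 281. That is 11.7% called, beside 6.05% of all genes with a symbol. Without SiC replicate 1 fewer members were called higher in every list of this theme but that of tight junction genes. Connexins and pannexins, and tetraspanins and annexins, went from 2 called higher to 0. The rank of the themes without that array was not computed. Of the genes that build or trim proteoglycans and hyaluronan 8 of 42 rose, or 4 without SiC replicate 1. Sulf2, an extracellular sulfatase that edits heparan sulfate and thereby the binding of growth factors, was at 2.40, 2.64, 1.98 and 1.65 with Si1AK and 0.64, 0.25 and 0.46 with SiC. The difference was 1.72 ± 0.23 (limma adjusted p = 0.00179), or 1.82 without SiC replicate 1, with 0.56 ± 0.10 (SD, n = 4) in NT and 0.28 ± 0.41 (SD, n = 3) in Si2AK, where it was as low as in SiC. Chst12, a chondroitin sulfotransferase, rose by 0.94 ± 0.13 (limma adjusted p = 0.00192). Chst11, of the same family, rose by 0.47 ± 0.091, and its call was lost without SiC replicate 2 (0.43). Among 28 integrin genes 3 rose and 1 fell. Itgb3, the beta3 subunit that pairs with alpha v to bind vitronectin, was at 1.53, 1.81, 1.52 and 1.52 with Si1AK and 0.33, 0.65 and 0.64 with SiC and rose by 1.06 ± 0.12 (limma adjusted p = 0.000851), with replicate 2 highest. Parva rose by 0.44 and Tln2 fell by 0.61, but Parva lost its call without SiC replicate 2 or Si1AK replicate 1 or 2, the mean over all probes gave -0.51 for Parva, and quantile normalization and the authors' deposited table gave 0.015 and 0.039 for Tln2.

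Of 39 kallikreins and membrane serine proteases with their inhibitors 3 rose and 1 fell, while 25 had a negative difference and the list median was -0.21, or -0.0022 without SiC replicate 1. Spink2, a Kazal-type inhibitor of serine proteases, was at 2.06, 2.27, 1.57 and 1.67 with Si1AK and -0.031, 0.12 and 0.42 with SiC and rose by 1.72 ± 0.18 (limma adjusted p = 0.000291), with 0.33 in Si2AK. The serine protease Prss23 rose by 0.88 ± 0.13 (limma adjusted p = 0.00396) and was at 3.37 in Si2AK. ADAM and ADAMTS proteases rose in 4 of 25 cases. Adam19, a membrane sheddase, rose by 0.95 ± 0.13 (limma adjusted p = 0.00215). Adamts4 and Adamts8, secreted proteases of the aggrecanase family, rose by 0.64 and 1.01, but with the mean over all their probes the differences were -0.18 and -0.024. The tight junction gene Cldn17 was at 0.37, 0.47, 0.26 and 0.37 with Si1AK and -1.17, -0.81 and -0.70 with SiC and rose by 1.26 ± 0.12 (limma adjusted p = 0.000192), and cingulin, Cgn, which links tight junctions to actin, by 0.80 ± 0.11 (limma adjusted p = 0.00253). They were 2 of 18 tight junction genes, whose median was -0.12, or 0.049 without SiC replicate 1. Plod2, a lysyl hydroxylase that prepares collagen for crosslinking, rose by 0.79 ± 0.13 (limma adjusted p = 0.00631).

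Among carriers and channels, 23 of 357 rose and 3 fell (7.28% called, near the 6.05% of all genes with a symbol). ABC transporters rose in 6 of 31 cases, or 5 without SiC replicate 1. Abcg1, which exports cholesterol and other sterols, was at -0.012, -0.011, -0.49 and -0.55 with Si1AK and -1.44, -1.67 and -1.73 with SiC and rose by 1.35 ± 0.18 (limma adjusted p = 0.00149), with -2.02 in NT and -1.79 in Si2AK. Abcg2, an exporter of drugs and porphyrins, was at -0.79, -0.77, -1.19 and -1.28 with Si1AK and -2.20, -2.04 and -2.24 with SiC and rose by 1.16 ± 0.19 (limma adjusted p = 0.00539), with -2.37 in Si2AK. Abcb9, a peptide transporter of lysosomes, rose by 1.02 ± 0.12 (limma adjusted p = 0.000774) and was higher still in Si2AK, at 1.05. P2rx7, a cation channel opened by extracellular ATP, was at 0.40, 0.58, 0.19 and 0.11 with Si1AK and -0.80, -0.67 and -0.65 with SiC and rose by 1.03 ± 0.12 (limma adjusted p = 0.000936), and the water channel Aqp1 rose by 0.97 ± 0.14 (limma adjusted p = 0.00259), from a SiC level that lay above that of Si2AK (-3.50). Of 114 solute carriers 6 rose and 1 fell (6.14%, near the 6.05% of all genes with a symbol), Slc4a11, a membrane carrier of protons, by 0.63 and the zinc importer Slc39a4 by 0.55 among the 6.

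Lipid and metabolic genes rose in 21 of 288 cases and fell in 1 (7.64% called, near the 6.05% of all genes with a symbol). Alox5ap, the protein that presents arachidonic acid to 5-lipoxygenase, was at 0.18, 0.34, 0.040 and 0.019 with Si1AK and -0.99, -1.15 and -1.09 with SiC and rose by 1.22 ± 0.096 (limma adjusted p = 7.54e-05), with -1.24 in NT and -1.86 in Si2AK, below SiC. Dhrs9, a dehydrogenase that oxidises retinol, was at -0.69, -0.65, -1.17 and -1.04 with Si1AK and -1.92, -2.23 and -2.12 with SiC and rose by 1.20 ± 0.15 (limma adjusted p = 0.00105), with a higher level of -0.098 in Si2AK. It was 1 of 2 that rose among 57 genes of retinoid metabolism and nuclear receptors, the other being Rarres1 (0.55 ± 0.089). That share, 3.51%, was below the 6.05% of all genes with a symbol. Cpt1c, the neuronal form of carnitine palmitoyltransferase, rose by 1.39, or 1.84 without SiC replicate 1, and lost its call without SiC replicate 2 or 3 or Si1AK replicate 1, 2 or 3 (1.07 to 1.84). Aldehyde dehydrogenases and aldo-keto reductases rose in 5 of 31 cases, or 3 without SiC replicate 1, with Akr1b10, a reductase of aldehydes and retinal, at 3.90, 4.0, 3.71 and 3.82 with Si1AK and 3.23, 3.41 and 3.41 with SiC and a rise of 0.51 ± 0.098 (limma adjusted p = 0.0127). Kdsr, of sphingolipid synthesis, rose by 0.50 ± 0.096 (limma adjusted p = 0.0128), with 2.34 in NT and 1.43 in Si2AK.

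The large housekeeping complexes showed no calls. None of 96 respiratory chain subunits, 78 proteins of the mitochondrial ribosome and 37 proteasome subunits was called by limma, in the fit of all arrays or without SiC replicate 1, with list medians of 0.092, 0.046 and 0.016, or -0.027, -0.040 and -0.095 without that array. At an unadjusted p below 0.05 there were 8, 1 and 0 genes, beside 4008 of all 20736 genes tested. Their members with the smallest p were Ndufb6 at 0.36 (limma adjusted p = 0.114), Mrpl1 at 0.27 (limma adjusted p = 0.207) and Psmd5 at 0.18 (limma adjusted p = 0.377). Lysosomal genes stood at positive differences in 60 of 70 cases and 6 were called higher, as were 6 without SiC replicate 1, where the median went from 0.24 to 0.083. Atp6v0a4, a subunit of the proton pump, was at 0.51, 0.30, 0.44 and 0.13 with Si1AK and -0.81, -1.04 and -0.54 with SiC and rose by 1.14 ± 0.19 (limma adjusted p = 0.0063), and it was lower in Si2AK, at -1.35, than in SiC. The hydrolases Manba, Ctsh and Ppt1 rose by 0.70, 0.60 and 0.51, or 0.53, 0.47 and 0.41 without SiC replicate 1.

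Of 58 cilium genes 7 rose, or 3 without SiC replicate 1, led by Wdr35, of the transport complex that returns cargo from the ciliary tip, at 3.54, 3.56, 3.40 and 3.48 with Si1AK and 2.55, 2.95 and 2.89 with SiC and a rise of 0.70 ± 0.093 (limma adjusted p = 0.00166). Within the BCL2 family Bcl2l1, which encodes the survival protein BCL-XL, was at 5.34, 5.36, 5.20 and 5.08 with Si1AK and 4.45, 4.54 and 4.71 with SiC and rose by 0.68 ± 0.088 (limma adjusted p = 0.00146), with 4.47 in NT and 4.53 in Si2AK. Bcl2l13, of the outer mitochondrial membrane, fell by 0.62 (limma adjusted p = 0.0126), with 0.16 in Si2AK, and its call was lost without SiC replicate 2 (-0.56). Regulators of small GTPases and of the cytoskeleton were called too. Cdc42ep3, an effector of Cdc42, was at 3.08, 3.11, 2.99 and 3.17 with Si1AK and 2.12, 2.43 and 2.37 with SiC and rose by 0.78 ± 0.10 (limma adjusted p = 0.00158), and the exchange factor Fgd3 rose by 0.78 ± 0.095 (limma adjusted p = 0.00105). Arhgap6 rose by 0.52, a value that became -0.88 with the mean over all its probes. Ubiquitin ligase genes of the F-box, KLHL and cullin families rose in 9 and fell in 2 of 131 cases, with Fbxw9, a substrate receptor, at 1.08 ± 0.11 and the scaffold Cul7 at 0.67 ± 0.089 (limma adjusted p = 0.000279 and 0.00165).

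Nuclear genes had the lowest share of calls, 4 higher and 7 lower of 526 (2.09%, beside 6.05% of all genes with a symbol). Calls were made for 1 of 126 splicing factors, 2 of 120 chromatin enzymes and 1 of 79 ribosome biogenesis factors. None of 40 Sox, Fox and Gata factors and 18 Ets factors was called by limma. At an unadjusted p below 0.05 there were 10 and 4, beside 4008 of all 20736 genes tested. Prrx2, a homeobox factor known from mesenchyme, was the exception among 79 homeobox genes. It was at 1.14, 1.19, 0.84 and 0.94 with Si1AK and -0.13, 0.052 and 0.072 with SiC and rose by 1.03 ± 0.095 (limma adjusted p = 0.00019), with 0.20 in NT and 0.14 in Si2AK.

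Of 21 circadian clock genes 3 fell, while 2 fell and 1 rose in the fit without SiC replicate 1. The clock is a feedback loop in which CLOCK and BMAL1 bind the E-box CACGTG and switch on their own repressors, while the related factors Nfil3 and Hlf compete for another element. Nfil3 was at 1.96, 2.02, 2.11 and 2.32 with Si1AK and 2.57, 2.80 and 2.98 with SiC and fell by 0.68 (SE 0.12, limma adjusted p = 0.00922); it was higher in Si2AK, at 3.52, than in any other group. Hlf was at -2.09, -2.26, -1.80 and -1.85 with Si1AK and -0.060, -1.20 and -0.94 with SiC and fell by 1.27, but SiC replicate 1 was its highest array and without it the difference of -0.93 was not called (limma adjusted p = 0.0513), as without Si1AK replicate 1 or 2. Ciart, which represses CLOCK and BMAL1, was at -2.75, -2.76, -2.30 and -2.37 with Si1AK and -2.06, -1.99 and -1.72 with SiC and fell by 0.62 (limma adjusted p = 0.028), a direction that turned under quantile normalization (0.33) and in the authors' deposited table (0.044), and the call was lost without SiC replicate 2 or 3 or Si1AK replicate 1 or 2 (-0.70 to -0.52). The E-box was found in the 250 bases before the start of 6.02% of 32851 RefSeq promoters, of 9.38% of the genes tested, of 5.06% of those called lower and of 8.58% of those called higher. The promoter of Ciart holds 3 matches, in capitals, and is printed as the one clock gene called here whose promoter holds any.
Ciart, chr3:95882229-95882478 (- strand): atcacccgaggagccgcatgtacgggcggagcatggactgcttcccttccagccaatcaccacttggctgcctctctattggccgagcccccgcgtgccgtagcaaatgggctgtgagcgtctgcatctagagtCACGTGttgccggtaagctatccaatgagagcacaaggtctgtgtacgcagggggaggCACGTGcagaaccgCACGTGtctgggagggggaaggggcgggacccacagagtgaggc

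Some calls were lost without SiC replicate 1, and the examples below were lost without other arrays as well. Of 176 called genes picked by fixed rules from these results, 97 were called in every fit that left out 1 of the 7 arrays. Among genes called with that array and not without it, the largest rises were those of Pdzk1ip1, Pfn2, Mmp1b and Pcdhb18, with 1.13, 1.01, 0.97 and 0.88, and 0.93, 0.77, 0.81 and 0.64 without it. Pdzk1ip1 was well above background on 2 of 3 SiC arrays, the others of these on all 7. Of the 7 fits that left out 1 array, Pdzk1ip1, Pfn2, Mmp1b and Pcdhb18 were called in 3, 1, 1 and 2. Each was also lost without Si1AK replicate 1 or 2. Cryba2, Olfr1496, Pcsk6 and Vmn2r115 were called lower with that array and not without it. Olfr1496, Pcsk6 and Vmn2r115 were well above background on no Si1AK array and Cryba2 on 1, and Pcsk6 had no value on SiC replicate 3. Olfr1496 was at least 3.59-fold lower, or at least 1.73-fold without SiC replicate 1, and Vmn2r115 at least 3.23-fold, or at least 2.57-fold. No size is given for Cryba2 and Pcsk6. Uggt2, a glucosyltransferase of glycoprotein folding, was well above background on all SiC and no Si1AK arrays and at least 3.77-fold lower, or at least 2.80-fold without SiC replicate 1, and it was not called without SiC replicate 1 or 3. Pcsk6, Olfr1496 and Cryba2 lost their calls whichever of the 7 arrays was left out, and Vmn2r115 was called in 2 of these 7 fits. In the fit of the 7 arrays alone, whose spread is estimated from fewer arrays, 76 of the 176 genes were called. Those named above that were not, with adjusted p between 0.0509 and 0.207 by limma, were Ces2b, Nppb, Cpt1c, Cd55b, Pdzk1ip1, Pfn2, Aqp1, Pcdhb18, Fas, Nod1, Wdr35, Manba, Rgs2, Ctsh, Slc39a4, Crlf2, Rarres1, Wnt9a, Arhgap6, Ppt1, Akr1b10, Kdsr, Chst11, Parva, Tln2, Bcl2l13, Ciart, Tnfrsf25, Nfil3, Hlf, Fzd5, Uggt2 and Olfr1496, beside Cdh5, Robo4, Slco1a1 and Serpinb9e.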

How the data were processed

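RNA of 14 samples (4 NT, 3 SiC, 4 Si1AK, 3 Si2AK) was labelled with Cy3 and hybridised to 1 Agilent array each, per the labels' protocols, 7 arrays on each of 2 slides. The deposited processed signal is an intensity that Agilent Feature Extraction had corrected for background and spatial trends, per the file headers, with probes placed on mm9. The value table that the authors deposited is on a log2 scale, with nearly equal distributions on all arrays; limma is named without a version in the submitters' processing notes, the scale and centring follow from the values, and its background step is unknown. Its values served as an alternative.

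Control spots were left out, spots of a probe averaged, and log2 of the processed signal minus the 75th percentile of each array taken. Probes well above background on every array of Si1AK or of SiC were kept (29336 of 55681) and the brightest probe stood for a gene. Of the probes 27737 were named by RefSeq accession and the others kept the name in the file. limma 3.58.1 in R 4.3.3 fitted all 14 arrays with 10 residual degrees of freedom, and adjustment ran over all 20736 genes, of which 290 missed a value on some array. The script was tested on simulated data. The number of arrays limits the precision.

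Genes named were those with the 12 largest rises and falls also called without SiC replicate 1, the 4 largest of each direction called only with it, up to 4 called members per list (2 with the smallest p where none was called), up to 5 per direction well above background in 1 group only, and the 4 smallest p-values per direction. The groups, rules and lists were chosen with earlier results of these data known. Alternatives changed the arrays, weights, blocks, scaling, background, probe filter and probe choice. No probe was matched to the targeted transcript. Results that need items withheld from the text are not reported here.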

Additional observations from a re-analysis of the deposited data

Results flagged for a closer look

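Of 189 genes checked for a Si1AK array far from the other 3, 4 had one, and chance alone marks about 1 in 20 groups. Itgb3, the integrin beta3 subunit, was at 1.81 on Si1AK replicate 2 against 1.52 to 1.53 on the others. Lrrc8c, a subunit of volume-regulated anion channels, was at 1.59 on replicate 4 against 1.95 to 2.01. Akap5, an anchor of protein kinase A, was at -7.48 on replicate 2 against -5.77 to -5.59. Cox6a2, a subunit of cytochrome c oxidase, was at -4.98 on replicate 4 against -6.16 to -5.98. Itgb3 and Lrrc8c were called higher with Si1AK whichever array was left out, and Akap5 and Cox6a2 were not called.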

How the results depend on the processing

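The number of called genes (980) ranged from 453 to 825 when 1 of the 7 arrays was left out, with 345 to 588 higher, 102 to 265 lower, 90 to 163 at least 2-fold higher and 40 to 125 at least 2-fold lower. A fit of the 7 arrays alone called 304 genes, 216 higher and 88 lower, with 51 at least 2-fold lower. Array weights gave 4891, 2303 higher and 2588 lower, and 310 and 236 at least 2-fold higher and lower. The slide as a block called 1463, 947 higher and 516 lower, 157 of them at least 2-fold. Slide 1 alone, with 1 SiC array, called 4 genes, 2 higher and 2 lower and all at least 2-fold, and slide 2 alone 141, 34 lower and the other 1.1e+02 higher, 77 and 30 of the higher and lower at least 2-fold. Without the filter on dim probes, where 34944 genes were tested, 397 genes were called, 311 higher and 86 lower, with 49 at least 2-fold lower. Quantile normalization gave 211 and 33 at least 2-fold higher and lower, and moved the median of all genes from -0.049 to 0.064. Normexp gave 81 and 57, the table deposited by the authors gave 23 at least 2-fold lower, and probes well above background on every array 51. Leaving out SiC replicate 1 and Si2AK replicate 2 together, chosen after seeing the data, called 1039 genes, 693 higher and 346 lower, with 204 at least 2-fold higher. Why these counts moved was not tested.

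Of 190 genes 13 changed sign under some setting, 19 values in all, of which those of 12 genes are given. With the mean of all probes Adamts4 was at -0.18, Adamts8 at -0.024, Arhgap6 at -0.88, Mrpl39 at -0.14 and Parva at -0.51. Under quantile normalization Ciart was at 0.33, Gsdmc3 at 0.074, Pnpla8 at 0.57, Sp4 at 0.21, Tln2 at 0.015 and Tnfrsf25 at 0.31. In the authors' table Ciart was at 0.044, Gsdmc3 at 0.041, Pnpla8 at 0.17, Sp4 at 0.050, Tln2 at 0.039 and Tnfrsf25 at 0.15. With array weights Psma3 was at -0.015. Whether the replicate numbers pair the samples cannot be told from the correlations below. Deviations were taken from the mean of 3 SiC arrays, of which SiC replicate 1 stood apart, so they depend on each other. Deviations of same-numbered Si1AK and SiC samples correlated at 0.26, -0.18 and 0.26. Those of samples on the same slide correlated at 0.14 to 0.26, and across slides at -0.24 to -0.18. With the replicate block 795 genes were called, 564 higher and 231 lower, and 133 of the 176 called genes kept their call. Probes of dim genes carry little signal over background, which limits most of the largest falls to bounds.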

Other observations

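Genes of membrane traffic and of protein glycosylation are not described above. Of 96 Rab GTPases and SNARE genes 8 were called higher and 1 lower by limma (9.38%, beside 6.05% of all genes with a symbol), or 4 and 1 without SiC replicate 1. Rab6b, a Rab of Golgi transport, was at 0.81, 0.94, 0.85 and 0.92 with Si1AK and 0.31, 0.41 and 0.25 with SiC and rose by 0.56 ± 0.088 (limma adjusted p = 0.00434), with 1.04 in Si2AK. Rab32, which serves lysosome-related organelles, rose by 0.49 ± 0.090 (limma adjusted p = 0.0105), and both were called in every fit that left out 1 array. Syt13, an atypical synaptotagmin, rose by 0.88 ± 0.17 and lost its call without SiC replicate 3 (0.77 to 0.97); its level was -1.03 in NT and -1.71 in Si2AK. Of 64 glycosyltransferase and mucin genes 4 rose (6.25%, near that share), or 2 without SiC replicate 1. St3gal5, which makes the ganglioside GM3, was at 4.80, 4.83, 4.70 and 4.65 with Si1AK and 4.09, 4.12 and 4.28 with SiC and rose by 0.58 ± 0.10 (limma adjusted p = 0.00816).

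Among 57 receptors for lipids, nucleotides and peptides 3 rose (5.26%, near the 6.05% of all genes with a symbol). Gpr132, a receptor of oxidised lipids and lactate, was at 1.14, 1.28, 0.69 and 0.83 with Si1AK and -0.012, 0.14 and 0.20 with SiC and rose by 0.87 ± 0.14 (limma adjusted p = 0.0051), with a higher level of 1.42 in Si2AK. Gprc5a, an orphan receptor that retinoic acid induces, rose by 0.68 ± 0.11 (limma adjusted p = 0.00598), with 3.46 in Si2AK. The ephrin ligand Efnb2 rose by 0.63 ± 0.095 (limma adjusted p = 0.0033), and the autophagy kinase Ulk2 by 0.62 ± 0.095 (limma adjusted p = 0.00358).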
